A study of Mus musculus with 6 samples.

Results

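The 10 genes described here, Cwc22, Glo1, Trim12a, Vcp, Vcp-rs, Wsb2-ps, Hjurp, Nnt, Fam227b and Zfp949, are of 37620 gene identifiers counted in mouse hippocampus. Of these genes, 9 were chosen by their measured CPM and read counts in these same libraries, which set single mice or sets of mice apart without following genotype, and Nnt was added as a known marker of C57BL/6 stocks. Their levels are therefore a description and carry no test of that pattern. All 10 passed the filter on low counts, Trim12a through 4 libraries with reads and Wsb2-ps and Fam227b through 3 libraries in which they were high, so passing it says nothing about them. The libraries came from 3 mice labelled miR17-92 knockout (KO), lacking a microRNA cluster, and 3 wildtype (WT) mice. All were C57BL/6 mice of 13 weeks, each from a different litter, and the whole hippocampus was read as 1 library per mouse. Which part of the cluster was removed, in which cells, and the source colony of either genotype: none of this is given in the sources used.

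Mouse stocks that share a strain name can differ at single loci, because mutations, duplications and deletions arise in separately kept colonies and because genome from another strain can travel with an engineered allele. Nnt encodes nicotinamide nucleotide transhydrogenase, a mitochondrial inner membrane enzyme that makes NADPH, and is known for a deletion of several exons in one C57BL/6 substrain. Glo1, glyoxalase 1, clears the reactive by-product methylglyoxal, has been linked to anxiety-like behaviour in mice, and lies in a segment that is duplicated in some inbred strains. Cwc22 belongs to a segment whose copy number differs among mouse strains. Processed pseudogenes such as Vcp-rs and Wsb2-ps are copies of a messenger RNA inserted elsewhere in the genome. Reads of a gene and of such a copy can be hard to tell apart.

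Gene reads ran from 26439693 to 57246827 per library. KO 3, WT 1 and WT 2 were the 3 deeper libraries and KO 1, KO 2 and WT 3 the 3 shallower, by a cut at the median. At that cut gene reads went from 40100762 in WT 1 to 32284831 in KO 1. A wider step lay within the deeper set, from 57246827 in KO 3 to 43588323 in WT 2. Levels are CPM, which are gene reads scaled to library size after TMM adjustment. They measure RNA, so the number of gene copies in these mice is not measured here. In whole tissue, fewer cells of a type and less RNA per cell cannot be told apart. All 10 hippocampal markers were read, at a summed 3633 to 3840 CPM in KO libraries and 3840 to 3985 CPM in WT libraries. Choroid plexus markers summed to 66.3 CPM in WT 1 and to 25.5 to 39.7 CPM in the other 5 libraries. Meningeal markers summed to 143 to 150 CPM in KO libraries, against 101 to 118 CPM in WT libraries. Sums for cortex lay between 91.7 and 104 CPM in KO libraries and between 92.1 and 103 CPM in WT libraries, with 131 to 137 and 129 to 136 CPM for thalamus, 25 to 29.4 and 24.2 to 28.3 CPM for striatum, and 12 to 16.0 and 13.3 to 24.1 CPM for blood. No marker of these lists was at 0 in every library. Their part in the values below was not tested.

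The 10 genes lie on 9 chromosomes and fell into few patterns over the 6 mice. In 8 of the 10 the highest library was at least 2 times the lowest, a spread that 11.8% of the 16432 tested genes showed, and 3.93% of the 14200 tested genes with a mean of 1 CPM or more. Since this spread chose them, nothing is read from that count. Vcp at 1.79 times and Nnt at 1.29 times were below that mark, and Glo1, Hjurp and Zfp949, at 2.04, 2.07 and 2.07 times, were just above it. The widest step in the sorted levels of Cwc22, Glo1, Trim12a and Nnt lay in 4 different places. For the other 6 genes it lay between the 3 deeper and the 3 shallower libraries. The genes were chosen for setting libraries apart, and the share of all tested genes that part there was not counted. Nothing is read from this count either.

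**Figure D1:**
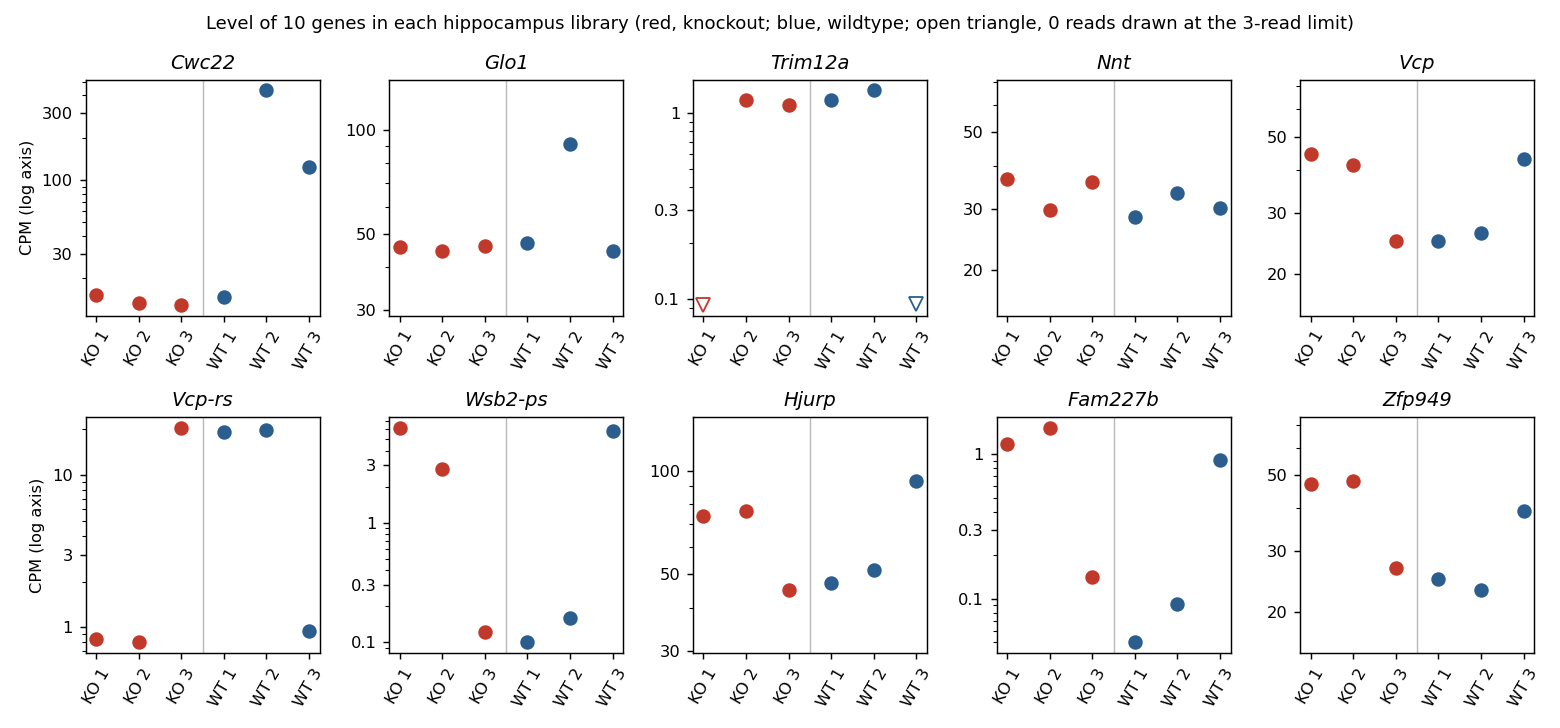
CPM of each of the 10 genes on a log axis, 1 point per library, KO mice in red left of WT mice in blue, with open triangles at the 3-read limit for libraries of 0 reads. Cwc22 is highest in WT 2 at 433 CPM, Glo1 in WT 2 at 90.8 CPM, and Vcp-rs is near 20 CPM in KO 3, WT 1 and WT 2 and below 1 CPM in the other 3.

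Cwc22 encodes a splicing factor that brings the helicase EIF4A3 to the spliceosome so that exon junction complexes can form. It had 487, 354 and 738 reads in KO mice 1, 2 and 3, against 594, 18941 and 3935 reads in WT mice 1, 2 and 3. This was 15.1, 13.4 and 12.9 CPM in KO mice, against 14.8, 433 and 123 CPM in WT mice. WT 2 was high by far, WT 3 stood between, and WT 1 lay within the range of the KO mice, so the genotypes overlapped. Going down the order, WT 2 was 3.51 times WT 3 and WT 3 was 8.15 times KO 1. The lowest 4 libraries lay within 12.9 and 15.1 CPM. WT 2 lay at 28.9 times the median of the 6 libraries.

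The genes next to Cwc22 were looked at for the same order of mice. Gm13727, a noncoding transcript that overlaps Cwc22 on the same strand, had 0 reads in each KO mouse, against 1, 57 and 12 reads in WT mice 1, 2 and 3, the same order among WT mice as Cwc22. Of the 5 tested genes on each side along chromosome 2, none had WT 2 and WT 3 as its 2 highest libraries, and 1 of 10, the muscle gene Ttn, had a highest library 1.5 times the lowest or more, where 25.6% of all tested genes did. Zfp385b and Ube2e3, the nearest on either side, lay between 34.6 and 38.7 CPM and between 56.7 and 65.8 CPM.

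Cwc22 has annotated relatives on the same chromosome, and the stretch below shows how close they are. Of all windows of 50 bases in its coding sequence, 40.8% occur unchanged in Gm13691, a predicted coding gene to which 0 reads were counted in every library. In turn, 100% of the 50-base windows of Gm13691 occur in a further gene, Gm13698. Its reads could therefore be set aside as placed at several sites, so its count of 0 says nothing of its level. The aligned coding sequences of Cwc22 and Gm13691 are 96.8% identical, with 39 mismatches and 40 gap positions over 2511 aligned positions. Below is the 60-base coding stretch with most differences between them, bases 248 to 307 of Cwc22, from GENCODE M21 transcripts on GRCm38, 5′ to 3′, with mismatches in capitals.
Cwc22: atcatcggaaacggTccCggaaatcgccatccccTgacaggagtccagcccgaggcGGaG
Gm13691: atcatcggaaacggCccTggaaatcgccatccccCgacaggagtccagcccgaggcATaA
With sequences this alike, a read of a further copy could be counted to Cwc22 or set aside as placed at several sites. How many were set aside per gene is not in the count tables.

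The partners of Cwc22 did not share its pattern. Of the 12 genes of the exon junction complex list, 1, Cwc22 itself, had a highest library at least 1.5 times the lowest. Eif4a3, the helicase that Cwc22 carries, lay between 23.7 and 26.7 CPM in KO mice and between 24.5 and 28.7 CPM in WT mice. Casc3 lay between 81.8 and 84.4 CPM in KO mice and between 78.8 and 86.2 CPM in WT mice. In the edgeR test of knockout against wildtype 0 of these 12 passed an adjusted p of 0.05. At an unadjusted p under 0.05 in edgeR there were 2, Cwc22 and Cwc25, where 10.6% of all tested genes had one. With DESeq2 or limma-voom 0 passed. The log2 folds of Cwc25 and Cwc27, splicing factors named in the same series, were -0.16 and -0.16.

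Glo1 set apart 1 mouse. It had 1468, 1173 and 2634 reads in KO mice 1, 2 and 3, against 1888, 3974 and 1424 reads in WT mice 1, 2 and 3. These counts were 45.7, 44.5 and 46.2 CPM in KO mice, against 47.1, 90.8 and 44.7 CPM in WT mice. WT 2 was at 1.98 times the median library, and the other 5 lay within 44.5 and 47.1 CPM.

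The genes that share the Glo1 segment in duplicated strains also had their highest level in WT 2, Dnah8 and Glp1r at low counts. Btbd9, which borders Glo1, lay at 168, 172 and 161 CPM in KO mice, against 171, 209 and 176 CPM in WT mice. Glp1r, the receptor of the gut peptide GLP-1, had 28, 38 and 71 reads in KO mice, against 64, 89 and 34 reads in WT mice. Its level in WT 2 was 1.51 times the median library, at 2.03 CPM against 1.60 CPM in WT 1, the next highest. Dnah8, a dynein chain whose gene overlaps Glo1 on the other strand, had 90, 76 and 147 reads in KO mice, against 52, 146 and 38 reads in WT mice. In CPM that was 2.80, 2.89 and 2.58 in KO mice, against 1.30, 3.34 and 1.19 in WT mice. WT 1 and WT 3 were thus low in Dnah8, while WT 2 lay above the KO mice. No interval was taken for Dnah8 or Glp1r, so counting error is not allowed for in these orders. Without a stated strand setting, reads of Glo1 and Dnah8 in their overlap cannot be told apart. Beyond these genes, Zfand3 lay between 59.2 and 64.5 CPM in all 6 libraries. Over the 10 tested neighbours of Glo1, 4 were highest in WT 2 (Btbd9, Dnah8, Glp1r and the lipid transporter Abcg1), where Abcg1 at 71.3 CPM was close to KO 2 at 69.7 CPM. The share of all tested genes highest in WT 2 was not counted, so nothing is read from the 4 of 10. This list of 4 segment genes had 0 members past an adjusted p of 0.05 in edgeR, 0 at an unadjusted p under 0.05, 0 with limma-voom, and 0 with DESeq2, which gave an adjusted p to 2 of them.

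A Glo1 pseudogene was also highest in WT 2. Gm13443, a processed pseudogene on chromosome 2, had 15, 5 and 22 reads in KO mice, against 13, 272 and 12 reads in WT mice. Its level in WT 2 was 16.3 times the median library. Gm13443 differs from the coding sequence of Glo1 by 3 mismatches in 552 aligned bases, and 78.3% of the 50-base windows of that sequence occur in it unchanged. Their first 60 bases are given because they hold 1 of these mismatches, in capitals.
Glo1: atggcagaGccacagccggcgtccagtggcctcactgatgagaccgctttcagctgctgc
Gm13443: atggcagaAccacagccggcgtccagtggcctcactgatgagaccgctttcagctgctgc
Reads that cover none of the 3 mismatches match both, and could be set aside as placed at several sites or counted to either. How many were is not known from the tables. The other genes of methylglyoxal handling stayed closer together. Hagh, the enzyme after Glo1 in the same route, lay between 49.2 and 51.6 CPM in KO mice and between 50.7 and 53.3 CPM in WT mice. Park7 lay between 69.8 and 71.4 CPM in KO mice and between 71.0 and 78.5 CPM in WT mice. Of this list of 7, Akr1b3, an aldo-keto reductase, and Glo1 had a highest library at least 1.5 times the lowest. The log2 folds of Park7 and Aldh2, an aldehyde dehydrogenase, were -0.09 and -0.07. With edgeR 0 of the 7 passed, with 0 at an unadjusted p under 0.05 and 0 with DESeq2 or limma-voom.

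Genes reported to differ among C57BL/6 stocks were examined beside Nnt and Glo1. Of a list of 13, 12 were in the tables and 10 were tested. Entpd4b, an enzyme of the Golgi that splits nucleotides, measured 44.1, 47.2 and 43.4 CPM in KO mice, against 41.9, 68.5 and 46.9 CPM in WT mice. Wdfy1, an adaptor protein of endosomes, measured 41.8, 40.6 and 42.3 CPM in KO mice, against 38.3, 54.8 and 40.5 CPM in WT mice. In both genes WT 2 lay above the other 5 libraries, as it did in Glo1, at 1.5 and 1.33 times the median library. Ide, the insulin-degrading enzyme, lay between 56.2 and 66.0 CPM over all 6.

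Gabra2, a subunit of the GABA-A receptor with a regulatory variant private to one substrain, was the gene of that list whose genotypes did not overlap. It measured 182, 182 and 197 CPM in KO mice, against 137, 166 and 131 CPM in WT mice, with WT 2 the highest of the WT mice. Genotypes did not overlap for 16.6% of all tested genes. Its log2 fold was 0.37, with an adjusted p of 0.261 in edgeR. Over the list 0 passed in edgeR and 0 with limma-voom. In edgeR 1 had an unadjusted p under 0.05 (Gabra2), where 10.6% of all tested genes had one. With DESeq2 1 passed (Gabra2) of the 9 given an adjusted p, where it called 1.34% of the 12286 genes given one. The median log2 fold of the 10 tested was 0.07, where the median of all tested genes was 3.93e-05.

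**Figure D2:**
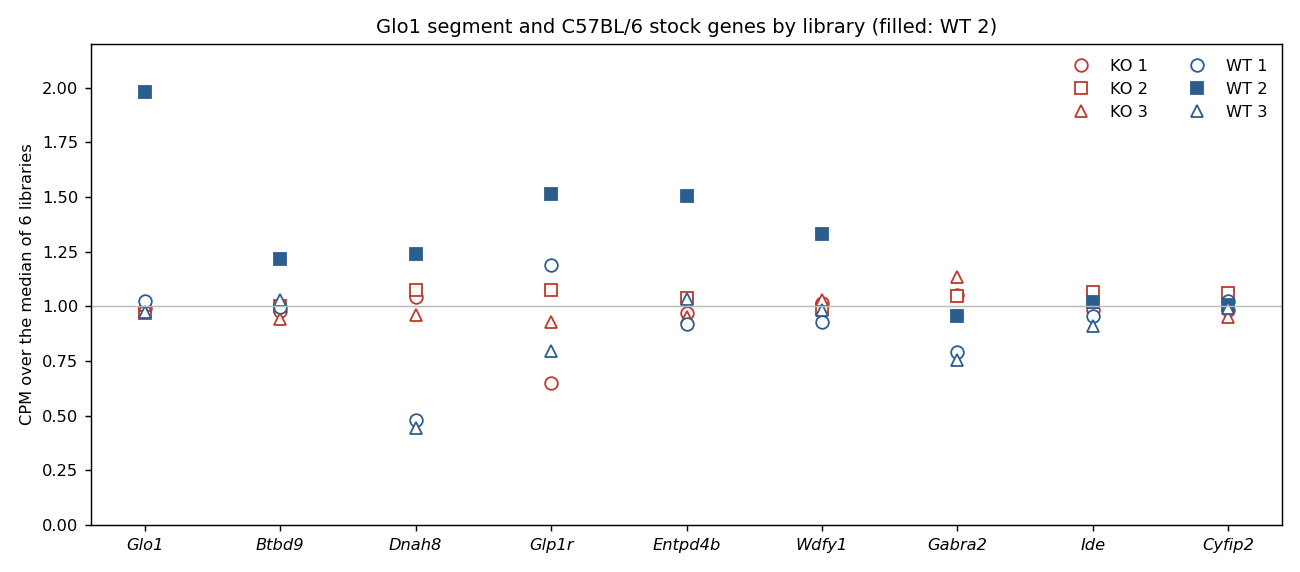
CPM of 9 genes of the Glo1 segment and of the stock list, each divided by the median of the 6 libraries, on a linear axis. KO mice are red and WT mice blue, and the filled square is WT 2. WT 2 stands at 1.98 for Glo1, 1.5 for Entpd4b and 1.33 for Wdfy1.

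Nnt itself was read in every mouse at a similar level. It had 1180, 786 and 2055 reads in KO mice 1, 2 and 3, against 1141, 1455 and 961 reads in WT mice 1, 2 and 3. This was 36.7, 29.8 and 36.0 CPM in KO mice, against 28.4, 33.3 and 30.2 CPM in WT mice, a mean of 34.2 ± 3.8 and 30.6 ± 2.4 CPM (SD, n = 3 each). No mouse was without Nnt RNA, and the genotypes overlapped. Reads were summed per gene, so which exons of Nnt were read is not known from the tables, and the known exon deletion could not be looked for.

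Of the 5 tested genes on the Paip1 side of Nnt, 4 ranked the same 3 mice above the other 3, and Paip1 did not. The gene 4833420G17Rik measured 26.4, 11.3 and 25.1 CPM in KO mice, against 11.2, 40.3 and 13.4 CPM in WT mice. Tmem267, a membrane protein gene, measured 23.7, 10.7 and 20.2 CPM in KO mice, against 9.55, 20.8 and 8.79 CPM in WT mice. Gm9752 measured 3.36, 2.24 and 3.10 CPM in KO mice, against 2.22, 3.52 and 1.69 CPM in WT mice. In each of these, KO 1, KO 3 and WT 2 were the 3 highest. The same 3 were highest in 3110070M22Rik, with 25, 7 and 34 reads in KO mice, against 9, 53 and 11 reads in WT mice. Its 95% Poisson intervals overlap across the sets, at 0.413 to 0.833 CPM in KO 3 and 0.172 to 0.618 CPM in WT 3.

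Nnt ranked the 6 mice in the same 2 sets of 3, by a narrow margin. KO 1, KO 3 and WT 2 lay between 33.3 and 36.7 CPM, and the other 3 lay between 28.4 and 30.2 CPM. Of its 10 tested neighbours 5 had these 3 libraries on top, which were the 4 genes above and Mrps30, a mitochondrial ribosome gene, at 17.3, 14.6 and 17.3 CPM in KO mice, against 15.4, 16.7 and 13.4 CPM in WT mice. Paip1, between Nnt and those 4 genes, lay between 63.5 and 71.3 CPM in all 6, and Fgf10, nearest on the other side, between 23.1 and 28.7 CPM. The 4 genes were singled out after their values were seen. The share of all tested genes with these 3 libraries on top was not counted, so nothing is read from the 5 of 10. This set of libraries holds both genotypes and both depths, and it is neither the set of Vcp-rs nor that of Cwc22. The log2 fold of Nnt between genotypes was 0.16 (SE 0.09), with an adjusted p of 0.567 in edgeR.

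**Figure D3:**
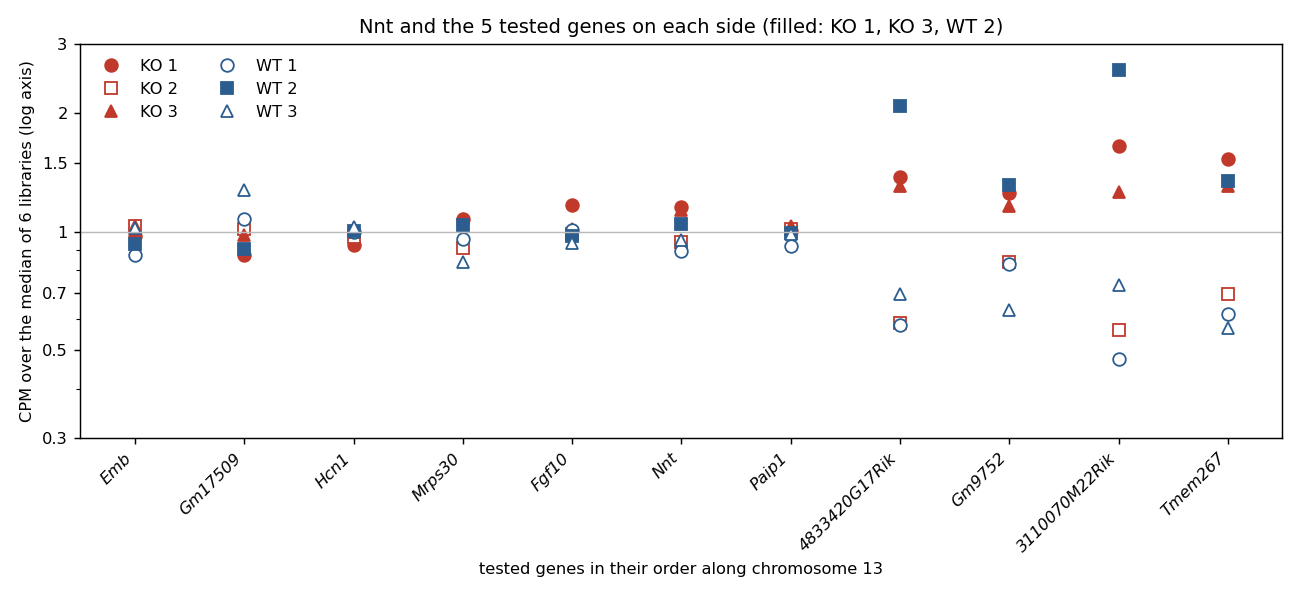
CPM divided by the median of the 6 libraries, on a log axis, for Nnt and the 5 tested genes on each side in their order along the chromosome. Filled symbols are KO 1, KO 3 and WT 2, which lie above the open symbols in 4833420G17Rik, Gm9752, 3110070M22Rik and Tmem267.

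Other genes of mitochondrial NADPH and peroxide handling varied little. Of 13 tested, 1 (Idh2, an NADPH-making dehydrogenase) had a highest library at least 1.5 times the lowest. Sod2, the mitochondrial superoxide dismutase, measured 132, 144 and 143 CPM in KO mice, against 113, 117 and 117 CPM in WT mice. KO mice lay above WT mice without overlap, as 16.6% of all tested genes did in either direction, at a log2 fold of 0.27 and an adjusted p of 0.133 in edgeR. With edgeR 0 of the 13 passed, and 1 had an unadjusted p under 0.05 (Sod2), where 10.6% of all tested genes had one. In the alternatives 1 passed with DESeq2 (Sod2) and 0 with limma-voom. DESeq2 called 1.34% of the genes to which it gave an adjusted p. Nadk2 and Prdx3, a kinase that makes mitochondrial NADP and a peroxidase, had log2 folds of 0.12 and 0.11.

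Trim12a belongs to a rodent cluster of TRIM5 relatives, a family known for blocking incoming retroviruses. It had 0, 31 and 63 reads in KO mice 1, 2 and 3, against 47, 58 and 0 reads in WT mice 1, 2 and 3. The 4 libraries with reads lay close together, at 1.18 and 1.10 CPM in KO 2 and KO 3, against 1.17 and 1.33 CPM in WT 1 and WT 2. Their 95% Poisson intervals all overlap, from 0.800 to 1.67 CPM in KO 2 and from 1.01 to 1.71 CPM in WT 2. A count of 0 allows up to 3 reads, which is 0.0933 CPM in KO 1 and 0.0941 CPM in WT 3. The level of KO 3, the lowest of the 4 libraries with reads, was 11.7 times this limit in WT 3. The 95% Poisson interval of KO 3 begins at 0.849 CPM, and that of WT 3 ends at 0.116 CPM. Intervals and limits cover counting error only.

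Trim12c, the neighbouring copy, was read in all 6 mice. It had 60, 79 and 154 reads in KO mice, against 96, 59 and 93 reads in WT mice. Over the part they share, the coding sequences of Trim12a and Trim12c are 96.4% identical, with 32 mismatches in 891 bases. The 60-base stretch with most differences between them, bases 119 to 178 of both coding sequences, shows the letters by which reads could be told apart, in capitals.
Trim12a: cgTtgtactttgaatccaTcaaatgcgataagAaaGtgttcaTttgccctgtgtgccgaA
Trim12c: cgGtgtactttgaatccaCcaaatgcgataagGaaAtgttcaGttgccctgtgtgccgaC
Of the 50-base windows of the Trim12a coding sequence 43.5% occur in other genes. Trim5 holds the most, 30.9% of all windows of that sequence. Summed, Trim12a and Trim12c measured 1.87, 4.18 and 3.80 CPM in KO mice, against 3.56, 2.67 and 2.92 CPM in WT mice. This sum leaves out Trim5, which had 0 reads in WT 3. KO 1, with no reads of Trim12a, was second lowest in Trim12c at 1.87 CPM and had the lowest sum. WT 3, also with no reads of Trim12a, had 2.92 CPM of Trim12c. The lowest level of Trim12c, 1.35 CPM, was in WT 2.

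Other genes of the cluster varied in further combinations of mice. Trim30d had 29, 12 and 32 reads in KO mice, against 26, 62 and 2 reads in WT mice, low in WT 3 as Trim12a was but read in KO 1. Trim5, below the filter, had 9, 6 and 8 reads in KO mice, against 4, 20 and 0 reads in WT mice. Trim30a, with 74, 57 and 118 reads in KO mice against 58, 135 and 64 reads in WT mice, was highest in WT 2. Trim34a lay between 0.25 and 0.51 CPM in KO mice and between 0.30 and 0.53 CPM in WT mice. Of the 12 genes listed 7 were tested, and 5 of those had a highest library at least 2 times the lowest, all of them at mean levels under 4 CPM. Trim21 and Trim68 were below that mark, at 1.27 and 1.52 times. With edgeR 0 of the 7 passed, with 0 at an unadjusted p under 0.05 and 0 with DESeq2 or limma-voom. DESeq2 gave an adjusted p to 1 of the 7, Trim68. The log2 folds of Trim12c, Trim34a and Trim21 were 0.20, 0.17 and 0.09.

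Vcp encodes p97, an ATPase that pulls ubiquitin-tagged proteins out of membranes and complexes, and Vcp-rs is its processed pseudogene on chromosome X. Vcp-rs had 27, 21 and 1167 reads in KO mice 1, 2 and 3, against 772, 870 and 30 reads in WT mice 1, 2 and 3. In CPM it measured 0.840, 0.797 and 20.5 in KO mice, against 19.2, 19.9 and 0.941 in WT mice. Vcp measured 44.5, 41.2 and 24.8 CPM in KO mice, against 24.9, 26.3 and 43.1 CPM in WT mice. The libraries high in Vcp-rs, which were KO 3, WT 1 and WT 2, were the ones low in Vcp. Within either set the 3 libraries lay close together. Vcp-rs ran from 19.2 to 20.5 CPM in the deeper and from 0.797 to 0.941 CPM in the shallower libraries.

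The sum of Vcp and Vcp-rs was nearly level over the 6 mice. Vcp and Vcp-rs together measured 45.3, 42.0 and 45.3 CPM in KO mice, against 44.1, 46.2 and 44.1 CPM in WT mice, a mean of 44.2 ± 1.9 CPM in KO and 44.8 ± 1.2 CPM in WT (SD, n = 3 each). The highest sum was 1.10 times the lowest. The pseudogene's share of the summed reads was 1.85%, 1.90% and 45.2% in KO mice, against 43.6%, 43.1% and 2.14% in WT mice. The coding sequence of Vcp and the transcript of Vcp-rs differ by 8 mismatches and 15 gap positions over 2418 aligned positions, and their longest identical run is 794 bases. Of the 50-base windows of that coding sequence 82.7% occur unchanged in Vcp-rs, and 71.3% of the windows of 100 bases do. Bases 1480 to 1539 of both hold 3 of the 8 mismatches and are shown with them in capitals.
Vcp: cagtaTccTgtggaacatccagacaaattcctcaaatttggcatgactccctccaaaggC
Vcp-rs: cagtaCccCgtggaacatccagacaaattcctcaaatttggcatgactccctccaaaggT
The set high in Vcp-rs is the set of deeper libraries. The part of depth, and of any step that handled the libraries in 2 sets, was not tested, and no label gives such a step.

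**Figure D4:**
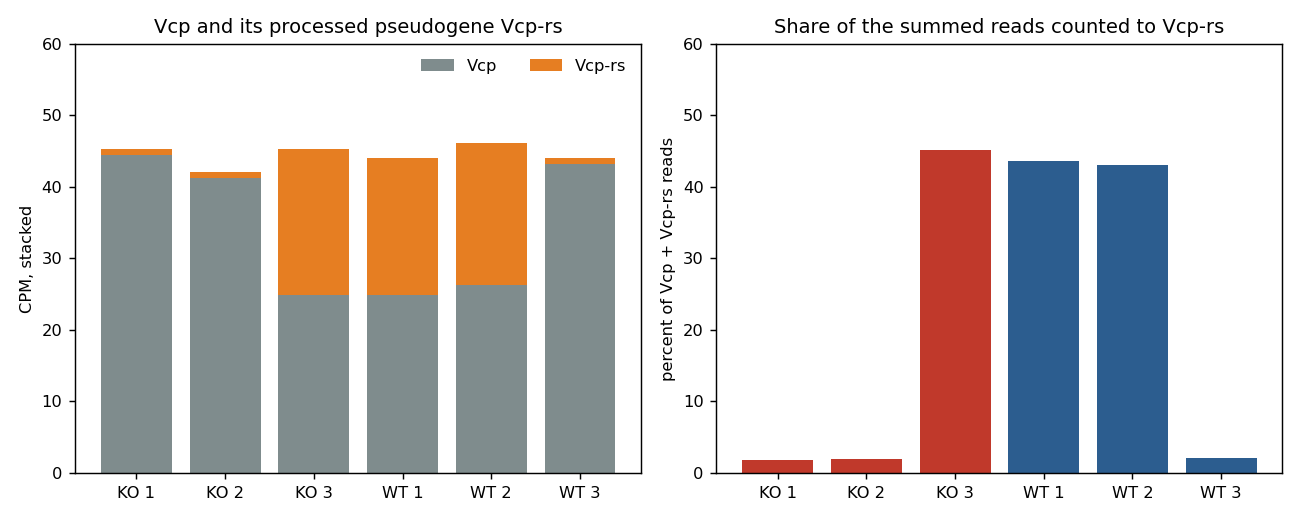
Left, stacked CPM of Vcp and Vcp-rs per library, KO mice before WT mice, and right, the percent of the summed reads counted to Vcp-rs. Stacks end between 42.0 and 46.2 CPM in all 6 libraries, while the share of Vcp-rs is 43.1% to 45.2% in KO 3, WT 1 and WT 2 and 1.85% to 2.14% in the other 3.

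Genes around either locus differed in whether they followed this split. Among the 10 tested neighbours of Vcp-rs on chromosome X none had KO 3, WT 1 and WT 2 as its 3 highest libraries. Beside Vcp on chromosome 4, 3 of 10 had KO 1, KO 2 and WT 3 as their 3 highest: Phf24, Fam205c and Fancg. Fam205c measured 4.67, 5.58 and 2.35 CPM in KO mice, against 2.44, 2.35 and 4.58 CPM in WT mice. Phf24 measured 325, 342 and 270 CPM in KO mice, against 279, 284 and 357 CPM in WT mice. The nearest tested genes, 1700022I11Rik, which overlaps Vcp on the other strand, and Fancg, a DNA repair gene, lay between 0.37 and 0.65 CPM and between 10.4 and 15.6 CPM.

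Partners of p97 lay closer together. Of 20 genes in the list, 19 were tested, Atxn3 being too low, and 1 of the 19, Vcp itself, had a highest library at least 1.5 times the lowest. The adaptors Ufd1 and Nploc4, which guide p97 to its substrates, lay between 69.7 and 80.2 CPM and between 76.5 and 79.2 CPM. With edgeR 0 passed, and 1 had an unadjusted p under 0.05 (Ubxn4, log2 fold 0.11), where 10.6% of all tested genes had one. In the alternatives 0 passed with DESeq2 or limma-voom. The adaptors Plaa and Faf2 had log2 folds of 0.10 and 0.09. The median log2 fold of the 19 was 0.04.

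Wsb2-ps, on chromosome 11, derives from Wsb2, a substrate-binding subunit of ubiquitin ligases. It had 199, 74 and 7 reads in KO mice 1, 2 and 3, against 4, 7 and 187 reads in WT mice 1, 2 and 3. That was 6.19, 2.81 and 0.123 CPM in KO mice, against 0.0997, 0.160 and 5.87 CPM in WT mice. The same split as in Vcp-rs appeared here in the opposite direction, with the shallower libraries high. Wsb2-ps also spread within that set, with KO 2 below KO 1 and WT 3 beyond counting error, since its 95% Poisson interval of 2.21 to 3.53 CPM lies below theirs.

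Wsb2 itself measured 147, 153 and 150 CPM in KO mice, against 161, 157 and 146 CPM in WT mice. Wsb2-ps reads were 4.04%, 1.80% and 0.0818% of the sum with Wsb2 in KO mice, against 0.0618%, 0.102% and 3.87% in WT mice. The 2 sequences are 95.8% identical over 1203 aligned positions with 49 mismatches, and 14.0% of the 50-base windows of Wsb2-ps occur in Wsb2. The stretch with most differences, bases 391 to 450 of Wsb2-ps and 397 to 456 of the Wsb2 coding sequence, is shown because the pair is less alike than Vcp and Vcp-rs, with mismatches in capitals.
Wsb2-ps: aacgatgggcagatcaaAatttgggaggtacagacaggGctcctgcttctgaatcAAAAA
Wsb2: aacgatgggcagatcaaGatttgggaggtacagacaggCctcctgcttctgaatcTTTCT
None of the 10 tested neighbours had KO 1, KO 2 and WT 3 on top. The nearest, the zinc finger genes Zfp287 and Zfp286, lay between 18.0 and 20.4 CPM and between 18.1 and 20.7 CPM.

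Hjurp, Fam227b and Zfp949 were also higher in KO 1, KO 2 and WT 3. Hjurp encodes the chaperone that places the centromeric histone CENP-A. It measured 73.7, 76.5 and 45.2 CPM in KO mice 1, 2 and 3, against 47.2, 51.7 and 93.5 CPM in WT mice 1, 2 and 3. The gap between the sets was 1.43-fold, and within the higher set WT 3 stood 1.22-fold above KO 2. Zfp949, a zinc finger gene, measured 47.2, 48.1 and 26.8 CPM in KO mice, against 24.9, 23.2 and 39.4 CPM in WT mice. Fam227b had 38, 40 and 8 reads in KO mice, against 2, 4 and 29 reads in WT mice. In CPM it was 1.18, 1.52 and 0.140 in KO mice, against 0.0498, 0.0914 and 0.910 in WT mice. The 95% Poisson intervals of KO 1, KO 2 and WT 3 overlap each other, and so do those of KO 3, WT 1 and WT 2.

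Unlike Vcp and Wsb2, these 3 genes have no near-identical coding copy in the annotation used. Of the 50-base windows of their coding sequences, 0 of 1952 in Hjurp, 0 of 1547 in Fam227b and 0 of 1760 in Zfp949 occur in a transcript of another gene, and likewise 0 of 2456 in Nnt. Fam227b is crossed on the other strand by Galk2 and by the growth factor gene Fgf7. Fgf7 had 49, 55 and 53 reads in KO mice, against 18, 28 and 61 reads in WT mice, and shared its 3 highest libraries with Fam227b. Galk2, a sugar kinase gene, lay between 18.8 and 22 CPM. Of the 10 neighbours of Hjurp none had the same 3 libraries on top, and of those of Zfp949 1 did, Mthfs, a folate enzyme gene at 0.47 to 1.41 CPM. The nearest to Hjurp, Mroh2a and Arl4c, lay between 1.72 and 3.25 CPM and between 37.5 and 43.1 CPM. Syncrip and Mthfsl, the nearest to Zfp949, lay between 88.7 and 96.4 CPM and between 1.05 and 1.75 CPM.

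The rest of the centromere list varied less than Hjurp. Cenpa, the histone that Hjurp carries, measured 1.99, 2.2 and 2.56 CPM in KO mice, against 1.72, 1.90 and 1.98 CPM in WT mice. Mis18a, of the complex that licenses its loading, lay between 5.62 and 6.78 CPM in KO mice and between 5.87 and 6.38 CPM in WT mice. Of the 8 listed genes 4 had a highest library at least 1.5 times the lowest, and Hjurp was the 1 at 2 times or more. Cenpn and Oip5 were at log2 folds of -0.50 and -0.25 and Cenpa at 0.28. With edgeR 0 passed, with 0 at an unadjusted p under 0.05 and 0 with DESeq2 or limma-voom. DESeq2 gave an adjusted p to 4 of the 8.

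For each of the 10 genes, the tested genes with the most similar course over the 6 libraries were looked up, among genes whose highest library was at least 1.5 times the lowest. Likeness was the root mean square distance of log2 CPM, centred on the mean of the 6 libraries. Nearest to Vcp were Hint2 and Il11ra1, both also on chromosome 4, at 0.07 and 0.09, and the zinc finger gene Zfp868 at 0.08. Hint2 measured 12.3, 11.2 and 6.68 CPM in KO mice, against 6.73, 7.59 and 10.7 CPM in WT mice. Nearest to Vcp-rs were Gm10600, Gm15772 and Gm11868, at 0.19, 0.20 and 0.60. Gm10600 had 0, 0 and 159 reads in KO mice, against 89, 120 and 0 reads in WT mice, and Gm15772 had 0, 0 and 177 reads in KO mice, against 98, 113 and 0 reads in WT mice.

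Ribosomal protein genes and pseudogenes were among the other nearest ones. Nearest to Zfp949 was the ribosomal protein gene Rpl26, at 0.07, with 21.1, 20.5 and 10.7 CPM in KO mice, against 9.87, 9.60 and 17.4 CPM in WT mice, followed by Zfp868 at 0.08 and Gm4675 at 0.08. Nearest to Glo1 were Gm14410 at 0.07, Rpl30 at 0.09 and Gm15832 at 0.11. Rpl30 measured 10.5, 9.57 and 10.3 CPM in KO mice, against 9.92, 17.2 and 9.98 CPM in WT mice. The ribosomal pseudogenes Rps15a-ps8 and Rps13-ps1 were nearest to Wsb2-ps, at 0.47 and 0.50, and the mitochondrial transfer RNA mt-Tr followed at 0.92. Fam227b had mt-Nd3, mt-Tr and Rps13-ps1 nearest, at 0.60, 0.73 and 0.97. Ribosomal protein genes have many pseudogenes, among which counting can split reads, so values of Rpl26 and Rpl30 are uncertain.

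The remaining genes had looser or flatter matches. Hjurp lay nearest to Hk3, at 0.09, with Vcp and Olfml1 following at 0.12 and 0.12. For Nnt the closest were Clec1a, Tmie and Mt2, at 0.08, 0.08 and 0.10, and for Trim12a 4930458D05Rik, Slc39a4 and Gm14002, at 0.26, 0.72 and 0.84. Cwc22 had no close match, with Gm15411 at 0.88 and the pseudogenes Gm13443 and Gm8822 at 1.13 and 1.13. Both pseudogenes were highest in WT 2, with 272 and 251 reads there and at most 22 and 17 in any other library.

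Knockout against wildtype was tested over all 16432 genes, and 0 of the 10 passed. The same 6 values chose the genes, so the folds are given as a description. With edgeR's quasi-likelihood test 0.0% of all tested genes had an adjusted p under 0.05 and 10.6% had an unadjusted p under 0.05. Among the 10 genes 1, Cwc22, had an unadjusted p under 0.05, and limma-voom called 0. DESeq2 called 0 of the 6 to which it gave an adjusted p, and gave none to Trim12a, Vcp-rs, Wsb2-ps and Fam227b. In 0 of the 10 were KO and WT libraries without overlap, where 16.6% of all tested genes were. Folds were positive for 6 and negative for 4, with a median of 0.09 on the log2 scale.

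Sizes of these folds followed the few mice that stood apart. Cwc22 averaged 13.8 ± 1.2 CPM in KO and 190 ± 220 CPM in WT (SD, n = 3 each), a log2 fold of -3.79 (SE 0.95, adjusted p = 0.287 in edgeR). Without WT 2 it was -2.31, with an adjusted p of 0.396. Glo1 averaged 45.5 ± 0.84 CPM in KO and 60.9 ± 26 CPM in WT (SD, n = 3 each), with a log2 fold of -0.42 (SE 0.23, adjusted p = 0.567 in edgeR). Without WT 2 that fold was -0.01. Zfp949 and Fam227b had log2 folds of 0.48 (SE 0.25) and 1.44 (SE 1.01), at adjusted p of 0.547 and 0.643 in edgeR. The log2 folds of Vcp-rs, Wsb2-ps, Vcp, Trim12a and Hjurp were -0.76, 0.59, 0.22, -0.15 and 0.02, at adjusted p of 0.782 to 0.986 in edgeR. Single libraries moved several of these. Without KO 3 the log2 fold of Vcp-rs was -4.04 and that of Vcp 0.45. Without WT 3 it was 3.57 for Fam227b, 4.46 for Wsb2-ps, 0.51 for Vcp and 0.74 for Zfp949. None of these had an adjusted p under 0.05 in edgeR, the lowest being 0.334.

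Within the deeper libraries, where 1 KO mouse stands against 2 WT mice, and within the shallower ones, where 2 stand against 1, the difference between genotypes was taken once more. Each such value rests on an arm of 1 library and has no test. This is also the split at which the levels of 6 of the 10 genes part, so a small value for those genes is no result. On the log2 scale KO minus WT was -0.04 and -0.01 for Vcp, 0.06 and -0.20 for Vcp-rs, -0.13 and -0.32 for Hjurp, and 0.16 and 0.28 for Zfp949, each deeper and then shallower. For Wsb2-ps it was -0.04 and -0.49, and for Fam227b 1.05 and 0.56. Cwc22 stood at -2.63 and -3.11, Glo1 at -0.50 and 0.01, and Nnt at 0.23 and 0.13. Trim12a stood at -0.17 and 1.82, with its libraries at 0 set to the 3-read limit.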

How the data were processed

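RNA of 6 hippocampi was sequenced, and the authors deposited raw read counts per Ensembl gene, 1 table per mouse. The tools named, per the submitters' processing notes, are HTSeq, DESeq2, SAMtools, FastQC 0.10.1 and STAR 2.3.0e, with the build mm9. Their roles, the annotation, strand setting and read length are not given in the sources used. The 5 closing rows of each table, which name no gene, held 38.0% to 40.3% of its total and were left out.

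Names and gene order came from GENCODE M21 on GRCm38, so no coordinates are given, and 32897 of 37620 identifiers were named. CPM used TMM library sizes. The main test was edgeR 4.0.16 (R 4.3.3), quasi-likelihood on genotype, filterByExpr, Benjamini-Hochberg adjustment over all genes. DESeq2 1.42.0 and limma-voom (limma 3.58.1) were alternatives. Mice came from separate litters and nothing says more of their rearing, so p-values measure the spread between these mice. Libraries of the same number had correlations of -0.10, -0.02 and -0.15 in their deviations, so numbers pair nothing.

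Shared sequence was counted as exact windows of 50 and 100 bases among GENCODE transcripts, and copies were aligned locally with Biopython 1.88. Simulated counts for knockout against wildtype, with 200 of 16432 genes changed, gave 12%, 58%, 80% and 96% recovery at folds of 1.25, 1.5, 2 and 3, with 4 false calls among 127.

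The genes and lists were chosen with earlier results of these data known. Named were the 10 genes, the copies Wsb2 and Trim12c, nearest tested neighbours, the 3 most similar genes each, and per list the 3 smallest p values and members spread 2-fold or more. A few genes under this rule are not reported here. Other genes were chosen after their values were seen.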

Additional observations from a re-analysis of the deposited data

Results flagged for a closer look

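Reads set aside because they map to several sites, which enter no gene's count, were counted as a percent of the file total. This percent was higher in every KO library than in every WT library, at 21.8% ± 0.71 in KO and 20.7% ± 0.41 in WT (SD, n = 3 each). It did not follow the split of Vcp-rs, with KO 3, WT 1 and WT 2 at 21.6%, 20.2% and 21% and KO 1, KO 2 and WT 3 at 21.2%, 22.6% and 20.9%.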

How the results depend on the processing

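Over all genes edgeR called 0 in the main test, with 1746 at an unadjusted p under 0.05. It called 62 with no filter beyond 1 read and DESeq2 called 165 of 12286 given an adjusted p. Leaving out 1 library gave 0 to 17, where 17 were called without KO 3, 16 without WT 2, and 2 each without KO 1 or WT 1. The other settings called 0, the replicate block among them, which changed no call. Of the 10 genes Cwc22 was called with no filter beyond 1 read (log2 fold -3.79, adjusted p = 0.0327), and its adjusted p ran from 0.0327 to 0.779 over the alternatives. None of the other 9 was called in any setting that gave it an adjusted p. DESeq2 gave none to Trim12a, Vcp-rs, Wsb2-ps and Fam227b, Fam227b was not tested at 1 CPM in 3 libraries, and Vcp-rs has no value of its own with copies summed.

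With copies summed, each log2 fold is that of a pair. It was 0.11 for Trim12a with Trim12c, -0.018 for Vcp with Vcp-rs and -0.037 for Wsb2-ps with Wsb2. Wsb2-ps gave at most 4.04% of its pair's reads, and Wsb2 alone had a log2 fold of -0.047. Trim12a gave at most 49.6% of its pair's reads. Though opposite in sign to the main folds of Trim12a, Vcp and Wsb2-ps, these values show no turn of sign in those genes alone. Folds of single genes turned sign in other settings. With the depth set as a covariate, chosen after the data were seen, Trim12a was 0.63, Vcp -0.027, Vcp-rs 0.011, Wsb2-ps -0.33 and Hjurp -0.22. Trim12a ran from -0.69 to 0.40, Wsb2-ps from -0.58 to 4.46 and Hjurp from -0.16 to 0.39 without 1 library, and Vcp-rs from -4.04 to -0.27 and Fam227b from 0.91 to 3.57 with no turn of sign. The cause was not tested. Of the 10 genes 6 to 8 kept a highest library at least 2 times the lowest when 1 library was left out or another scaling was used, and 6 did with copies summed. Without WT 2 the log2 of highest over lowest was 0.08 for Glo1 and 3.25 for Cwc22. With copies summed it was 0.14 for Vcp, 0.11 for Wsb2-ps with Wsb2 and 1.16 for Trim12a with Trim12c. Low counts limit Trim12a, Fam227b and Wsb2-ps most.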

Other observations

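Slc27a2, a fatty acid transporter gene near Fam227b on chromosome 2, was high where Fam227b was low. It measured 5.79, 5.70 and 12.7 CPM in KO mice, against 23.2, 13.8 and 4.99 CPM in WT mice, so KO 3, WT 1 and WT 2 lay above the other 3. Hdc, its neighbour, which makes histamine, measured 2.05, 1.14 and 1.49 CPM in KO mice, against 2.04, 1.19 and 0.60 CPM in WT mice. Both were chosen after their values were seen.

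Zfp868, a zinc finger gene on chromosome 8, was among the nearest genes of both Vcp and Zfp949. It measured 23.1, 21.7 and 12.5 CPM in KO mice, against 11.8, 12.3 and 19.6 CPM in WT mice. Gm15411, nearest to Cwc22, measured 0.529, 0.380 and 0.351 CPM in KO mice, against 0.424, 4.50 and 0.847 CPM in WT mice, with WT 2 and WT 3 highest as in Cwc22. Of the 100 neighbour genes examined 37 had a highest library at least 1.5 times the lowest, where 25.6% of all tested genes did. Of those 37, 9 lay beside Trim12a. Several of these 9 had few reads, such as Trim34a with 8 to 29 per library and Olfr78 with 6 to 38. Counting error alone widens the spread at such counts.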
